A study of Mus musculus with 12 samples.

Results

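The Aurora kinases and the proteins that work with them on the meiotic spindle are described here through 10 genes. They were the kinases Aurka, Aurkb and Aurkc, the chromosomal passenger genes Incenp, Birc5 and Cdca8, the kinase Plk1, and the spindle genes Tpx2, Tacc3 and Cep192. They were chosen by symbol from the GENCODE M21 annotation and made up 10 of the 55573 genes counted. The study sequenced poly(A) RNA of single mouse oocytes at the germinal vesicle (GV) stage, which precedes the resumption of meiosis, with different numbers of PCR cycles and with whole oocytes or fractions of their lysate. The published methods name a healthy B6D2F1 female aged 12 weeks, in the singular, as the source of the oocytes. Every oocyte was collected in medium with milrinone, which holds oocytes at the GV stage. The same amount of ERCC molecules, synthetic RNAs of known sequence, was added to each whole-oocyte or fraction sample. There were 12 libraries in 6 groups of 2. In 3 groups, whole oocytes were amplified for 10, 14 or 18 cycles, with a separate oocyte for each of the 6 libraries. In the other 3 groups, 1/2, 1/4 or 1/8 of an oocyte was amplified for 18 cycles, a number known for these libraries from the published methods alone. The fractions came from the lysates of 2 further oocytes, so the 3 fraction groups together rested on the same 2 cells. The labels do not say which lysate gave which library.

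AURKA acts at the spindle poles, where TPX2 binds and activates it, and TACC3 is one of its substrates on spindle microtubules. AURKB and AURKC are the alternative kinases of the chromosomal passenger complex, in which INCENP activates the kinase while survivin (the product of Birc5) and borealin (the product of Cdca8) bring the complex to centromeres. Mouse oocytes have no centrioles and build their spindle from acentriolar microtubule-organising centres, where AURKA, PLK1 and CEP192 act, and AURKC is known mainly from germ cells.

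Levels are given as CPM, the counts of a gene per 1000000 gene counts of its library. The whole-oocyte libraries held 11597144 and 9189672 gene counts at 10 cycles, 12349577 and 13806199 at 14, and 3017069 and 1706478 at 18 cycles. The fractions held 4024670 and 3598549 gene counts for 1/2, 4027907 and 5049518 for 1/4, and 11404262 and 1702062 for 1/8 of an oocyte. All 10 genes were counted in all 12 libraries and passed the filter on low counts, which asked for 5 or more counts in 2 or more of the libraries fitted together. The lowest count was 28, for Aurkb in replicate 2 of the 1/8 group, where the level was 16.5 CPM with a 95% Wilson interval of 11.4 to 23.8 CPM. Intervals of this kind cover counting error only, because amplified reads are not independent molecules. In CPM, each of the 10 genes stood above at least 86.6% of all genes in every library. Their summed level was 3158 and 3441 CPM at 10 cycles, 3013 and 3201 at 14 cycles, 5699.9 and 4025 at 18 cycles, 4631 and 4700.2 in 1/2, 3609 and 3819.8 in 1/4, then 4016 and 3498 in 1/8 of an oocyte. The sum was thus higher in each whole oocyte at 18 cycles than in the 4 whole oocytes at fewer cycles.

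The libraries carried the marks of oocytes. All 10 oocyte markers were detected in every library, with summed levels from 10391 CPM in replicate 2 of the 18-cycle whole oocytes to 25694 CPM in replicate 2 at 14 cycles, and the sum was lower in the 18-cycle whole oocytes than in those at fewer cycles. Of the 10 markers, 8 were lower in both libraries at 18 cycles than in both at 10 cycles, Zar1 was higher and Figla overlapped. Gdf9 stood at 5349 and 5057 CPM at 10 cycles and 1606 and 1579 CPM at 18 cycles, and Zar1 at 1434 and 1388 CPM at 10 cycles and 5182 and 4801 CPM at 18 cycles. Of 10 granulosa and cumulus cell markers, 4 to 10 were detected in a library, and their summed level was 194 and 72.5 CPM at 10 cycles, 94.2 and 157 at 14 cycles, 68.9 and 25.8 at 18 cycles, 32.5 and 28.9 in 1/2, 55.6 and 51.7 in 1/4, then 79.5 and 69.3 in 1/8 of an oocyte. The most abundant of them was Cyp11a1 in replicate 1 at 10 cycles (66.6 CPM), Cyp19a1 in the 1/8 group (42.4 and 35.3 CPM) and Nr5a2 in the others. Fshr was at 0 in 9 of the 12 libraries. Inha stood at 34.1 CPM in replicate 1 at 10 cycles, against 0.326 in replicate 2. It stood at 31.9 CPM in replicate 2 at 14 cycles, against 3.64 in replicate 1, and at 17.2 and 0.586 CPM at 18 cycles. Amh, Cyp11a1 and Foxl2 were higher in the same library of each whole-oocyte group as Inha. Cyp19a1 and Fshr did not follow this in every group. Of 5 blood markers, the sum was at most 0.172 CPM. The part of these markers in the results was not tested.

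**Figure D1:**
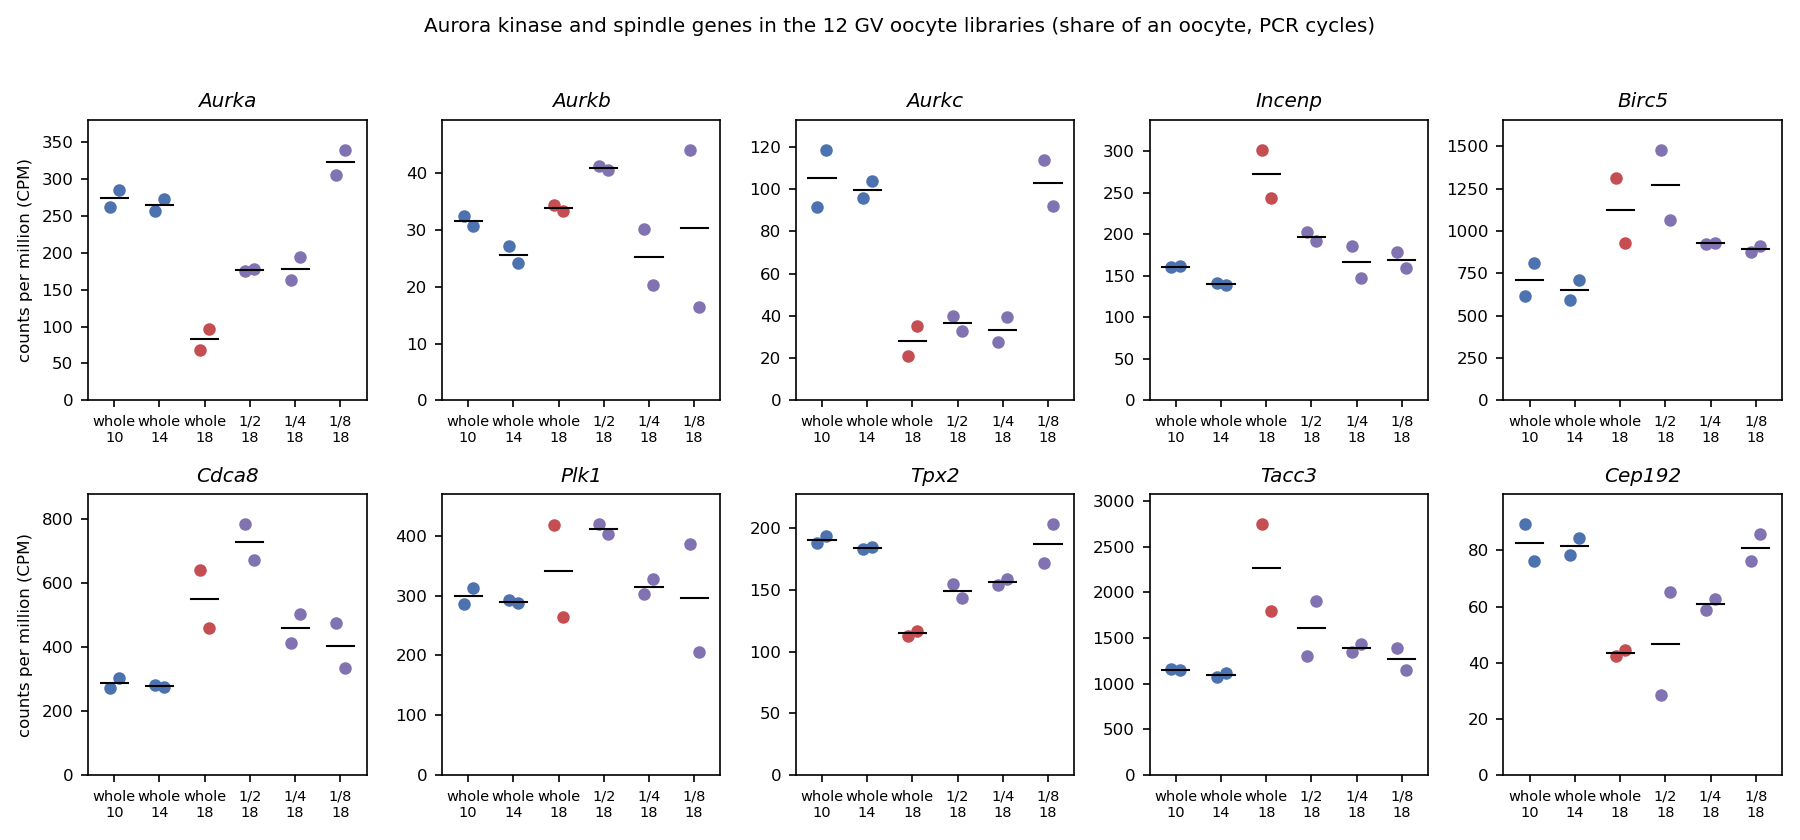
Level of each of the 10 genes in every library, in CPM, with points for the 2 libraries of each group and a line for their mean; the labels give the share of an oocyte and the PCR cycles. Aurka lay between 68.6 and 97.3 CPM in the whole oocytes at 18 cycles and between 163 and 339.6 CPM in the 10 other libraries.

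The first question was how these genes compared between whole oocytes amplified for 10, 14 and 18 cycles. Each library was a separate oocyte, and the libraries at 18 cycles also had fewer gene counts and more gene counts per ERCC count. The parts of cycles, oocyte and depth in the differences were not tested. Between 10 and 14 cycles no change was called, a call being an adjusted p under 0.01 in the edgeR quasi-likelihood test with Benjamini-Hochberg adjustment over all genes tested. With size factors from the median ratio over genes, 0 of the 10 genes were called lower and 0 higher, where 0% of the 17532 genes tested were called lower and 0% higher by edgeR. At an unadjusted p under 0.05 the counts were 0 of the 10 genes and 513 of all genes, and DESeq2 called 1 gene lower and 1 higher over all genes. All 10 log2 changes were negative and small, from -0.33 for Aurkb to -0.05 for Cep192, with a median of -0.10 against 0.01 over all genes.

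At 18 cycles the genes parted. Compared with 10 cycles, Aurka and Aurkc were called lower and Incenp, Cdca8 and Tacc3 were called higher, but with size factors from the ERCC molecules Aurka, Aurkc, Tpx2 and Cep192 had positive changes. With the median ratio over genes, 2 of the 10 genes were called lower, where 10.8% of all genes were, and 3 were called higher, where 12.3% of all genes were. The median log2 change was 0.40 over the 10 genes and -0.29 over all genes. Compared with 14 cycles, 2 were called lower, where 10.7% of all genes were, and 4 were called higher, where 12.5% of all genes were, Birc5 joining the other 3. The medians were then 0.61 and -0.29. Under ERCC scaling the median of all genes at 18 against 10 cycles was 1.96, and the 4 genes with turned signs stayed under it, at 0.70 for Aurka, 0.47 for Aurkc, 1.74 for Tpx2 and 1.57 for Cep192. The 6 others exceeded it, from 2.60 for Aurkb to 3.53 for Tacc3. Under this scaling 0 of the 10 genes were called lower and 8, all but Aurka and Aurkc, were called higher, where 47.6% of all genes were called higher at 18 against 10 cycles and 47.9% at 18 against 14 cycles. Leaving out 1 library moved these counts at 18 against 10 cycles. Without replicate 1 of the 10-cycle group 2 genes were called lower and 0 higher, without its replicate 2 none was called lower or higher by edgeR, without replicate 1 of the 18-cycle group 1 was called lower and 3 higher, and without its replicate 2 there were 2 lower and 4 higher. At 18 against 14 cycles, 1 was called lower and 0 higher without replicate 1 of the 14-cycle group, 0 were called in either direction without its replicate 2, 1 was called lower and 3 higher without replicate 1 of the 18-cycle group, and 2 lower and 5 higher without its replicate 2. Over all genes, the counts in the fits without a library were between 688 and 1827 lower and between 928 and 2180 higher at 18 against 10 cycles, and between 858 and 1802 lower and between 957 and 2156 higher at 18 against 14 cycles.

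The second question was how a fraction of an oocyte compared with a whole one at the same number of cycles. These comparisons use the same 2 whole oocytes at 18 cycles as the cycle comparisons, so the values stand side by side and are not independent. With the median ratio over genes, Aurka and Aurkc were called higher and Tacc3 lower in 1/8 of an oocyte. In 1/2 of an oocyte, 0 of the 10 genes were called lower, where 0.0406% of the 14788 genes tested were, and 0 higher, where 0.0811% were, by edgeR, while 1 of the 10 genes (Aurka) and 1943 of all genes had an unadjusted p under 0.05 and DESeq2 called 49 genes lower and 103 higher over all genes. In 1/4 of an oocyte, edgeR called 0 of the 10 lower, where 0.426% of all genes were, and 0 higher, where 0.0338% were, with 3 of the 10 (Aurka, Incenp and Tacc3) and 2331 of all genes at an unadjusted p under 0.05, and DESeq2 called 171 genes lower and 70 higher. In 1/8 of an oocyte, 1 of the 10 was called lower, where 8.69% of all genes were, and 2 were called higher, where 7.06% were. The median log2 changes of the 10 genes were 0.24, -0.32 and -0.34 in 1/2, 1/4 and 1/8, against -0.01, 0.05 and 0.03 over all genes.

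The same amount of ERCC molecules went into each sample, so lower values in smaller shares were built into the design. Scaled on the ERCC molecules, all 10 genes had negative changes against the whole oocytes at 18 cycles in every share of the oocyte, larger the smaller the share, as were the medians of all genes. Those whole oocytes had 1873 and 1158 gene counts per ERCC count, on 1611 and 1474 ERCC counts, while the whole oocytes at 10 and 14 cycles had 323 to 359.98 and the 1/2 group 439 and 344. The size of these changes therefore depends on the whole oocytes used as reference. In 1/2 of an oocyte, 8 of the 10 genes were called lower, where 52% of all genes were, and 0 higher, where 0% were, with Aurka and Aurkc not past the threshold. In 1/4 of an oocyte, 10 of the 10 were called lower, where 69.7% of all genes were, and 0 higher, where 0% were. In 1/8 of an oocyte, again 10 of the 10 were called lower, where 87.5% of all genes were, and 0 higher, where 0% were. The edgeR counts of 0 in the higher direction were also 0 by DESeq2 in the 3 shares. At an unadjusted p under 0.05, 9, 10 and 10 of the 10 genes passed, beside 10455, 12036 and 13614 of all genes in either direction. The median log2 changes of the 10 genes were -1.77, -3.12 and -5.32, and those of all genes were -1.997, -2.69 and -4.92. The 10 genes spread over a range of changes, from -2.62 for Tacc3 to -0.86 for Aurka in 1/2, from -3.63 to -1.72 for the same genes in 1/4, and from -6.04 to -3.14 in 1/8. The count of the 10 genes in 1/2 moved with single libraries, and was 2 without replicate 1 of the whole oocytes, 3 without replicate 2 of the 1/2 group, 6 without its replicate 1, 7 without replicate 1 of the 1/4 group and 9 without replicate 2 of the whole oocytes. Over all genes the count called lower in these fits was 3081, 1930, 6111, 6812 and 8908, against 7697 with all libraries. In 1/4, the count was 9 without replicate 1 or without replicate 2 of the 1/4 group, where Aurka was the gene lost, at -1.76 and -1.65.

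Against whole oocytes at 10 cycles, the ERCC-scaled picture of the 10 genes was another in 1/2 and 1/4 of an oocyte. In 1/2, 0 were called lower by edgeR and Cdca8 was called higher (1.77), and the changes of Aurkb (0.79), Incenp (0.72), Birc5 (1.27), Plk1 (0.87), Tpx2 (0.0692) and Tacc3 (0.85) were positive as well, where 2.13% of the 18041 genes tested were called lower and 6.55% higher. In 1/4, only Aurkc was called lower (-2.22), where 7.75% of all genes were called lower and 0.870% higher. In 1/8, all 10 stayed called lower, where 74.3% of all genes were. The median log2 changes of all genes against this reference were -0.12, -0.81 and -2.82 in 1/2, 1/4 and 1/8. Against the same reference but with the median ratio, Aurkc was called lower and Birc5 (1.07) and Cdca8 (1.58) higher in 1/2, where 6.88% of all genes were called lower and 9.30% higher. In 1/4 Aurkc was called lower, where 4.17% of all genes were called lower and 5.82% higher, and none of the 10 genes and none of all genes was called in 1/8 by edgeR, with 2278 of all genes at an unadjusted p under 0.05. The ERCC values of each gene below are against the whole oocytes at 18 cycles unless stated.

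**Figure D2:**
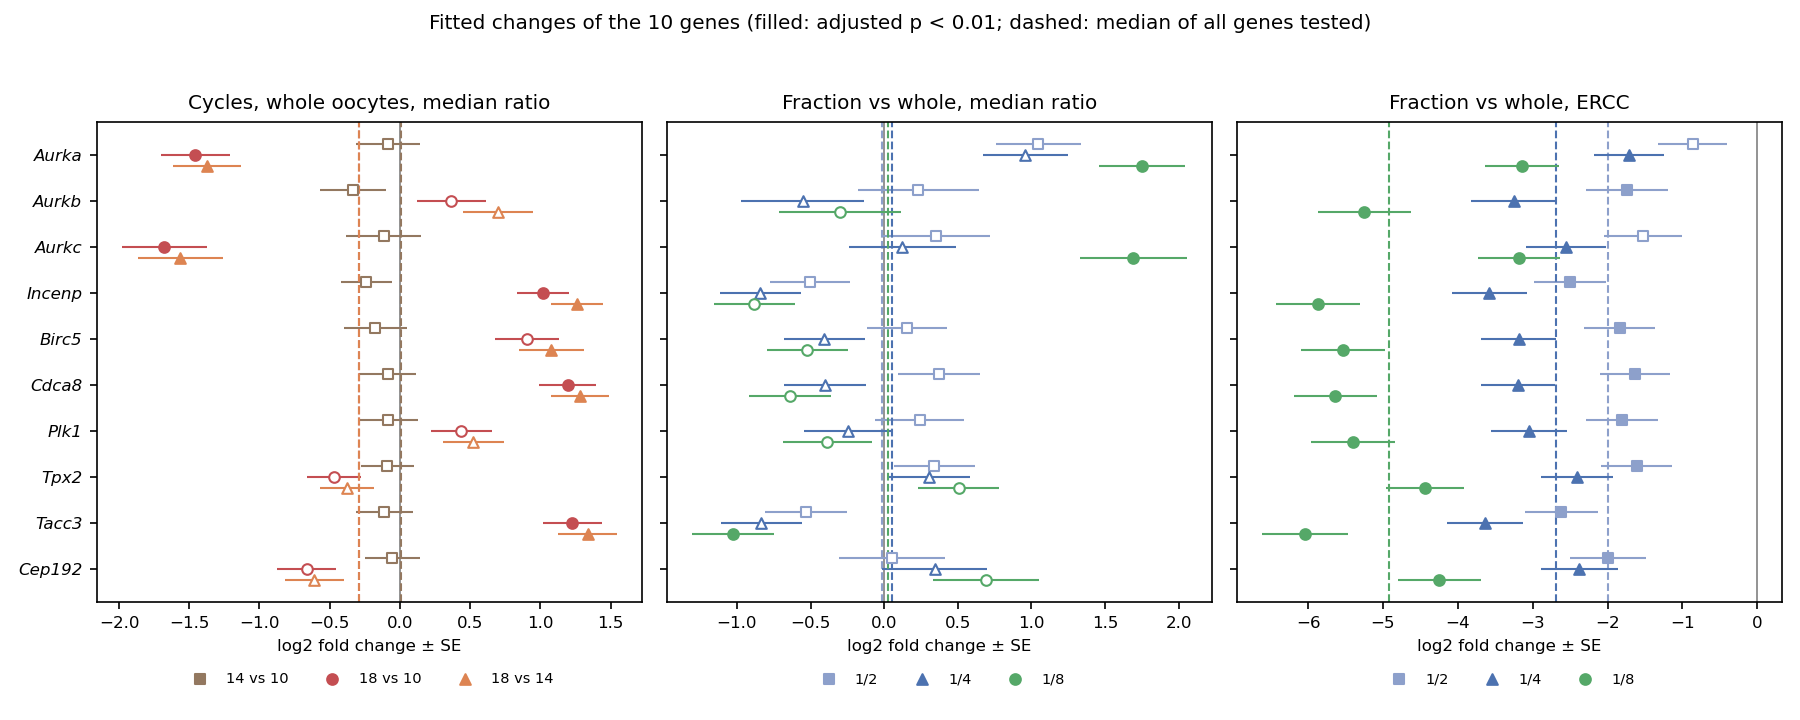
Fitted log2 fold changes with their standard errors for the 10 genes, in whole oocytes by cycles and in fractions against whole oocytes at 18 cycles, with filled points where the adjusted p was under 0.01 and dashed lines at the median of all genes tested. In the cycle panel Aurka stands at -1.46 and Tacc3 at 1.23 for 18 against 10 cycles, where ERCC scaling gave 0.70 and 3.53.

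Aurka (ENSMUSG00000027496, chromosome 2, 172356190 to 172370535, minus strand, GRCm38) encodes the spindle pole kinase. Its level was 262 and 285 CPM at 10 cycles, 256 and 273 at 14, and 68.6 and 97.3 at 18 cycles. The pairs at 10 and 14 cycles overlapped, and both libraries at 18 cycles lay far below them. The fitted log2 change at 18 against 10 cycles was -1.46 ± 0.24 (SE), 2.75-fold lower with an adjusted p of 0.00114, and relative to the median of all genes it was -1.17. Against 14 cycles it was -1.37 ± 0.24, with an adjusted p of 0.00158, and under ERCC scaling both signs turned (0.70 and 0.82), with neither called. The call was lost without replicate 2 of the 10-cycle group (-1.36) in the first comparison and without replicate 2 of the 14-cycle group (-1.33) in the second.

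In the fractions Aurka stood at 176 and 177 CPM in 1/2, 163 and 194 in 1/4, then 305 and 339.6 in 1/8 of an oocyte. The 6 fraction libraries were all above the 2 whole oocytes at 18 cycles, and those of the 1/8 group were also above the 4 whole oocytes at fewer cycles. With the median ratio, the log2 change against the whole oocyte was 1.05 ± 0.29 in 1/2 (adjusted p = 0.0847), 0.96 ± 0.29 in 1/4 (adjusted p = 0.0983) and 1.75 ± 0.29 in 1/8 (adjusted p = 1.88e-04), the last a 3.37-fold higher level. Against whole oocytes at 10 cycles, the change in 1/8 was 0.29 and was not called. Per 1000 ERCC counts, Aurka had 128 and 113 counts in the whole oocytes at 18 cycles, 77.1 and 61.0 in 1/2, 34.9 and 33.6 in 1/4, then 15.0 and 15.8 in 1/8. On this scale each share lay below the next larger one with no overlap. In the ERCC fit Aurka exceeded the median of all genes by 1.13, 0.97 and 1.78 on the log2 scale in the 3 shares.

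Aurkb (ENSMUSG00000020897, chromosome 11, 69045647 to 69051664, plus strand) encodes the kinase of the passenger complex in most dividing cells, and was the least abundant Aurora kinase per kilobase of exon. Its level was 32.4 and 30.8 CPM at 10 cycles, 27.1 and 24.2 at 14, and 34.5 and 33.4 at 18 cycles. The 18-cycle pair was a little above the 10-cycle pair, and the 14-cycle pair was below both. The log2 change at 18 cycles was 0.37 ± 0.25 against 10 cycles (adjusted p = 0.268) and 0.70 ± 0.25 against 14 cycles (adjusted p = 0.0469), so neither was called, while under ERCC scaling both were called higher (2.60 and 2.95). In the fractions Aurkb stood at 41.2 and 40.6 CPM in 1/2, 30.3 and 20.4 in 1/4, then 44.2 and 16.5 in 1/8. The 1/8 group thus held both the highest and the lowest of the 12 values, and it overlapped every other group. No median-ratio change in a fraction was called, the values being 0.23 ± 0.41, -0.55 ± 0.42 and -0.30 ± 0.41, and without replicate 1 of the 1/8 group the last was -1.23 and without its replicate 2 it was 0.20. Under ERCC scaling the changes were -1.74, -3.25 and -5.25, all called, and the first was not called without replicate 1 of the whole oocytes (-1.25), replicate 1 (-2.05) or replicate 2 (-1.54) of the 1/2 group, or replicate 1 of the 1/4 group (-1.71).

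Aurkc (ENSMUSG00000070837, chromosome 7, 6995300 to 7003091, plus strand) encodes the germ cell kinase of the passenger complex. Its level was 91.7 and 119 CPM at 10 cycles, 95.9 and 104 at 14, and 20.9 and 35.2 at 18 cycles. As for Aurka, the 10-cycle and 14-cycle pairs overlapped, and the 18-cycle pair lay apart below them. The log2 change was -1.68 ± 0.30 at 18 against 10 cycles, 3.20-fold lower (adjusted p = 0.00178), and -1.56 ± 0.30 against 14 cycles (adjusted p = 0.00259), and under ERCC scaling both signs turned (0.47 and 0.63), with neither called. The first call was lost without replicate 2 of the 10-cycle group (-1.43) or replicate 1 of the 18-cycle group (-1.22). The other was lost without replicate 1 (-1.59) or replicate 2 (-1.50) of the 14-cycle group, or replicate 1 of the 18-cycle group (-1.10).

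In the fractions Aurkc stood at 39.8 and 33.1 CPM in 1/2, 27.6 and 39.4 in 1/4, then 114 and 92.2 in 1/8 of an oocyte. The 1/2 and 1/4 groups overlapped the whole oocytes at 18 cycles, while the 1/8 group matched the range of the whole oocytes at 10 and 14 cycles. With the median ratio, the changes were 0.35 ± 0.37 (adjusted p = 0.746), 0.12 ± 0.36 (adjusted p = 0.917) and 1.69 ± 0.37 (adjusted p = 0.00166), and the last was 3.23-fold. The call in 1/8 was lost without replicate 1 of the whole oocytes (1.27) or replicate 1 of the 1/8 group (1.55). Against whole oocytes at 10 cycles, Aurkc was lower in 1/2 (-1.29) and 1/4 (-1.54) and nearly level in 1/8 (0.03). Per 1000 ERCC counts, it had 39.1 and 40.7 counts in the whole oocytes at 18 cycles, 17.5 and 11.4 in 1/2, 5.90 and 6.84 in 1/4, then 5.61 and 4.29 in 1/8. Its ERCC changes were -1.52, -2.55 and -3.18, so that from 1/4 to 1/8 its fitted value moved by less than that of any other member, and the first, with an adjusted p of 0.0101, was not called, though it was called without replicate 2 of the whole oocytes (-1.53), by DESeq2 (-1.53), with at least 10 counts in every library (-1.53) and with 12 libraries in 1 fit (-1.63).

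Aurkc was also the member whose sequence was least its own. Of the 1667 different 50-base words in its annotated transcripts, 54.8% also occurred in 10 pseudogenes, 9 of them on chromosome 7 and 1 (Gm12463) on chromosome 4. The count files listed 0 reads as placed more than once in every library, and how reads that fit Aurkc and a copy equally well were handled is not known from the counts. The 10 copies together had 15.0 and 27.6 CPM at 10 cycles, 23.8 and 22.5 at 14 cycles, 6.63 and 5.27 at 18 cycles, 4.47 and 7.50 in 1/2, 4.97 and 7.72 in 1/4, then 16.2 and 22.3 in 1/8. In each library this came to between 11.3% and 31.7% of the count of Aurkc, and the copies too were lowest in the 18-cycle whole oocytes, the 1/2 and the 1/4 groups. For Aurka, Aurkb and Incenp, 0% of the words occurred in another gene, and for Plk1 the share was 10.4% and for Tacc3 6.59%.

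Within a library, the balance among the 3 kinases shifted by group. Per kilobase of exon, Aurka exceeded Aurkb by a ratio of 9.41 and 10.8 at 10 cycles, 10.98 and 13.1 at 14, and 2.32 and 3.39 at 18 cycles. In the fractions that ratio was 4.96 and 5.09 in 1/2, 6.27 and 11.1 in 1/4, then 8.04 and 24.03 in 1/8. The ratio of Aurkc to Aurkb, on the same scale, was 5.47 and 7.46 at 10 cycles, 6.84 and 8.30 at 14 cycles, 1.17 and 2.04 at 18 cycles, 1.86 and 1.58 in 1/2, 1.76 and 3.74 in 1/4, then 4.98 and 10.8 in 1/8. Both ratios were lowest in replicate 1 of the whole oocytes at 18 cycles, and per kilobase of exon Aurkb was the lowest of the 3 in all 12 libraries. In CPM, Aurkb exceeded Aurkc in replicate 1 of the whole oocytes at 18 cycles (34.5 against 20.9). It also did so in both 1/2 libraries (41.2 against 39.8 and 40.6 against 33.1) and in replicate 1 of 1/4 (30.3 against 27.6). Per kilobase of the longest transcript, Aurkb exceeded Aurkc in replicate 1 at 18 cycles (17.7 against 14.9). The wide spread in 1/8 came with the 504 and 28 counts of Aurkb there. Between Aurka and Aurkc the per-kilobase ratio moved less, from 1.45 in replicate 2 at 10 cycles to 3.56 in replicate 1 of the 1/4 group.

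Incenp (ENSMUSG00000024660, chromosome 19, 9872296 to 9899551, minus strand), the scaffold of the passenger complex, went the other way from Aurka and Aurkc at 18 cycles. Its level was 160.2 and 162 CPM at 10 cycles, 141 and 139 at 14, and 302 and 244 at 18 cycles. No pair overlapped another, and the 18-cycle pair was the highest. The log2 change at 18 cycles was 1.02 ± 0.19 against 10 cycles, a 2.03-fold rise (adjusted p = 0.0018), and 1.26 ± 0.19 against 14 cycles (adjusted p = 5.66e-04). It was 3.28 under ERCC scaling in the first comparison. The calls were lost without replicate 1 (0.98) or replicate 2 (1.07) of the 10-cycle group and without replicate 1 (1.29) or replicate 2 (1.24) of the 14-cycle group. In the fractions it stood at 202 and 192 CPM in 1/2, 185 and 148 in 1/4, then 179 and 159.8 in 1/8. All 6 values lay below the whole oocytes at 18 cycles, and the 1/4 and 1/8 pairs each spanned the 10-cycle pair. The median-ratio changes were -0.50 ± 0.27, -0.84 ± 0.27 and -0.88 ± 0.27 (adjusted p = 0.451, 0.128 and 0.0201), none of them called, and the last was called by DESeq2 (-0.88) and with 12 libraries in 1 fit (-0.91).

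Birc5 (ENSMUSG00000017716, chromosome 11, 117849251 to 117855743, plus strand), which encodes survivin, stood at 617 and 809 CPM at 10 cycles, 590.1 and 710.0 at 14, and 1315 and 931 at 18 cycles. The 18-cycle pair was above the other 4 libraries, which overlapped each other. In the fit the log2 change was 0.90 ± 0.23 against 10 cycles (1.87-fold, adjusted p = 0.0110), just short of the threshold, and 1.08 ± 0.23 against 14 cycles (2.11-fold, adjusted p = 0.00441). The first was called without replicate 2 of the 18-cycle group (1.09), and also by DESeq2 (0.90), with no filter (0.90), with 12 libraries in 1 fit (0.92) and under ERCC scaling (3.17). The other was lost without replicate 1 (0.97) or replicate 2 (1.21) of the 14-cycle group, or replicate 1 of the 18-cycle group (0.92). In the fractions the level was 1479.9 and 1062 CPM in 1/2, 923 and 932 in 1/4, then 873 and 912 in 1/8. The 1/2 pair overlapped the whole oocytes at 18 cycles, the 1/4 pair reached the edge of their range, and the 1/8 pair lay below it. No median-ratio change was called, at 0.15 ± 0.27, -0.41 ± 0.27 and -0.52 ± 0.27. Under ERCC scaling they were -1.84, -3.19 and -5.53, all called, and the first was not called without replicate 1 of the whole oocytes (-1.05) or replicate 2 of the 1/2 group (-1.47).

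Cdca8 (ENSMUSG00000028873, chromosome 4, 124918465 to 124939311, minus strand), which encodes borealin, stood at 270.4 and 302 CPM at 10 cycles, 279 and 273 at 14, and 641 and 459 at 18 cycles. The 18-cycle pair was clear of the others, which overlapped. The log2 change was 1.20 ± 0.20 against 10 cycles (2.29-fold, adjusted p = 0.00126) and 1.28 ± 0.20 against 14 cycles (2.43-fold, adjusted p = 8.5e-04). The calls were lost without replicate 1 (1.08) or replicate 2 (1.32) of the 10-cycle group, and without replicate 1 (1.32) or replicate 2 (1.26) of the 14-cycle group. In the fractions the level was 782 and 672 CPM in 1/2, 412 and 503 in 1/4, then 473 and 334 in 1/8. The 1/2 pair was the highest of the 6 groups, and the 1/4 and 1/8 pairs overlapped the whole oocytes at 18 cycles. The median-ratio changes were 0.37 ± 0.28, -0.40 ± 0.28 and -0.64 ± 0.28, none of them called. Under ERCC scaling they were -1.64, -3.20 and -5.63, all called, and the first was not called without replicate 1 of the whole oocytes (-0.86) or replicate 2 of the 1/2 group (-1.36). Cdca8 shared 232 exonic bases with 9930104L06Rik on the opposite strand, a gene with at most 310 counts in a library.

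Plk1 (ENSMUSG00000030867, chromosome 7, 122159439 to 122169873, plus strand) encodes polo-like kinase 1, which Aurora kinases activate at mitotic and meiotic entry. It stood at 286 and 314 CPM at 10 cycles, 292 and 288 at 14, and 418 and 264 at 18 cycles. The libraries at 10 and 14 cycles lay close together, and the 2 at 18 cycles fell on either side of them. Plk1 had a log2 change of 0.44 ± 0.22 against 10 cycles (adjusted p = 0.141) and 0.52 ± 0.22 against 14 cycles (adjusted p = 0.0831), neither of them called. Without replicate 2 of the 18-cycle group, the change against 14 cycles was 0.79 and was called, and under ERCC scaling both were called higher (2.74 and 2.85). In the fractions it stood at 419 and 403 CPM in 1/2, 303 and 328 in 1/4, then 386 and 206 in 1/8. All 3 pairs touched or overlapped the whole oocytes at 18 cycles. The median-ratio changes were 0.24 ± 0.30, -0.24 ± 0.30 and -0.39 ± 0.30, and the ERCC changes were -1.80, -3.05 and -5.40. The first of the ERCC changes was not called without replicate 1 of the whole oocytes (-0.90) or replicate 2 of the 1/2 group (-1.59). Plk1 shared 156 exonic bases with Gm44985 on the opposite strand, which had at most 144 counts in a library.

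Tpx2 (ENSMUSG00000027469, chromosome 2, 152847964 to 152895321, plus strand), the activator of AURKA, stood at 188 and 194 CPM at 10 cycles, 183 and 185 at 14, and 112 and 117 at 18 cycles. Replicates lay within a few CPM of each other, and the 18-cycle pair was the lowest of all 6 groups. The log2 change was -0.47 ± 0.19 against 10 cycles (adjusted p = 0.0824) and -0.38 ± 0.19 against 14 cycles (adjusted p = 0.147), and relative to the median of all genes these were -0.18 and -0.09. Neither was called, but under ERCC scaling the sign turned and both were called higher (1.74 and 1.86). With a filter of at least 10 counts in every library the change against 10 cycles was -0.68 and was called lower. In the fractions it stood at 155 and 144 CPM in 1/2, 154 and 159 in 1/4, then 172 and 203 in 1/8. All 6 values were above the whole oocytes at 18 cycles, and the 1/8 pair spanned the range at 10 and 14 cycles. The median-ratio changes were 0.34 ± 0.27, 0.31 ± 0.27 and 0.51 ± 0.27, none of them called. The ERCC changes were -1.61, -2.41 and -4.44, all called, and the first was not called without replicate 1 of the whole oocytes (-1.18) or replicate 2 of the 1/2 group (-1.38).

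Tacc3 (ENSMUSG00000037313, chromosome 5, 33658128 to 33678995, plus strand), which encodes a spindle microtubule protein and AURKA substrate, had the highest mean level per kilobase of the 10 genes in every group. It stood at 1161 and 1149 CPM at 10 cycles, 1070.0 and 1122 at 14, and 2746 and 1799.6 at 18 cycles. The pairs at 10 and 14 cycles were close, and the 18-cycle pair was well above them with a wide spread of its own. The log2 change was 1.23 ± 0.21 against 10 cycles, 2.34-fold (adjusted p = 0.00125), and 1.34 ± 0.21 against 14 cycles, 2.53-fold (adjusted p = 7.86e-04). The calls were lost without replicate 1 (1.20) or replicate 2 (1.26) of the 10-cycle group, and without replicate 1 (1.32) or replicate 2 (1.37) of the 14-cycle group.

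In the fractions Tacc3 stood at 1308 and 1911 CPM in 1/2, 1352 and 1434 in 1/4, then 1393 and 1149 in 1/8 of an oocyte. The 1/2 pair overlapped the whole oocytes at 18 cycles, the 1/4 and 1/8 pairs lay below them, and the 1/8 pair reached down to the 10-cycle level. With the median ratio, the changes were -0.53 ± 0.28 (adjusted p = 0.426), -0.83 ± 0.28 (adjusted p = 0.134) and -1.03 ± 0.28 (adjusted p = 0.00873), the last 2.04-fold lower. This call was lost without replicate 1 of the whole oocytes (-0.79), replicate 1 (-1.16) or replicate 2 (-0.88) of the 1/8 group, or replicate 1 (-1.03) or replicate 2 (-1.03) of the 1/4 group. It was also lost with TMM scaling (-0.95) and with at least 10 counts in every library (-0.97), and against whole oocytes at 10 cycles the sign turned (0.19). Under ERCC scaling Tacc3 had the most negative change of the 10 genes in each share, at -2.62, -3.63 and -6.04. Tacc3 shared 289 exonic bases with Tmem129 on the opposite strand, which had at most 74 counts in a library.

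Cep192 (ENSMUSG00000024542, chromosome 18, 67800107 to 67885170, plus strand) encodes a scaffold that recruits AURKA and PLK1 to microtubule-organising centres. It stood at 89.2 and 76.2 CPM at 10 cycles, 78.4 and 84.5 at 14, and 42.4 and 44.5 at 18 cycles. The 18-cycle pair lay below the other 4 libraries, which overlapped each other. The log2 change was -0.66 ± 0.21 against 10 cycles (adjusted p = 0.0314) and -0.61 ± 0.21 against 14 cycles (adjusted p = 0.0433), neither of them called, and under ERCC scaling the sign turned and both were called higher (1.57 and 1.63). With at least 10 counts asked of every library, the changes were -0.88 and -0.85 and were called lower. In the fractions it stood at 28.3 and 65.3 CPM in 1/2, 58.8 and 62.8 in 1/4, then 76.1 and 85.8 in 1/8. The 1/2 pair fell on either side of the whole oocytes at 18 cycles, and the 1/4 and 1/8 pairs were above them. The median-ratio changes were 0.05 ± 0.36, 0.35 ± 0.36 and 0.69 ± 0.36, none of them called. The ERCC changes were -1.99, -2.37 and -4.25, all called, and the first was not called without replicate 1 of the whole oocytes (-1.56) or replicate 1 of the 1/2 group (-1.71).

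Tpx2 and Tacc3, an activator and a substrate of AURKA, can be set side by side per kilobase within each library. The ratio of Tacc3 to Tpx2 on this scale was 8.13 and 7.81 at 10 cycles, 7.70 and 8.00 at 14, and 32.2 and 20.2 at 18 cycles. In the fractions it was 11.1 and 17.5 in 1/2, 11.6 and 11.9 in 1/4, then 10.7 and 7.44 in 1/8. The ratio in both whole oocytes at 18 cycles was above that of the 10 other libraries. Among the passenger genes, the per-kilobase ratio of Birc5 to Incenp ranged from 4.86 in replicate 2 of the whole oocytes at 18 cycles to 9.32 in replicate 1 of the 1/2 group, and that of Cdca8 to Incenp from 1.41 in replicate 1 at 10 cycles to 3.24 in replicate 1 of the 1/2 group.

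The order of the genes by level per kilobase of exon was the same at 10 and 14 cycles and changed at 18 cycles. At 10 cycles the mean levels, in CPM per kilobase, were 325 for Tacc3, 209.6 for Birc5, 136 for Plk1, 108 for Aurka, 69.1 for Aurkc, 55.3 for Cdca8, 40.8 for Tpx2, 37.2 for Incenp, 10.7 for Aurkb and 6.63 for Cep192. No neighbours in this order overlapped at 10 cycles, nor at 14 cycles. In whole oocytes at 18 cycles the order was Tacc3 at 639.8, Birc5 at 329.97, Plk1 at 155, Cdca8 at 106, Incenp at 63.0, Aurka at 32.8, Tpx2 at 24.5, Aurkc at 18.4, Aurkb at 11.5 and Cep192 at 3.48, and Plk1 overlapped Cdca8. Aurka and Aurkc thus moved down past Cdca8 and Incenp. The 1/4 group had the order Tacc3, Birc5, Plk1, Cdca8, Aurka, Incenp, Tpx2, Aurkc, Aurkb and Cep192 with no neighbours overlapping, and the 1/2 group had the same order with Tacc3 and Birc5 overlapping. In the 1/8 group Aurka at 127 and Aurkc at 67.6 stood close to their places at 10 cycles, with overlaps between Plk1 and Aurka, Cdca8 and Aurkc, Tpx2 and Incenp, and Aurkb and Cep192. With the length of the longest transcript in place of all exons, 4 of the 10 genes kept their place at 10 cycles, 8 did in whole oocytes at 18 cycles and 6 did in 1/8, so neighbours in this order depend on the length used.

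**Figure D3:**
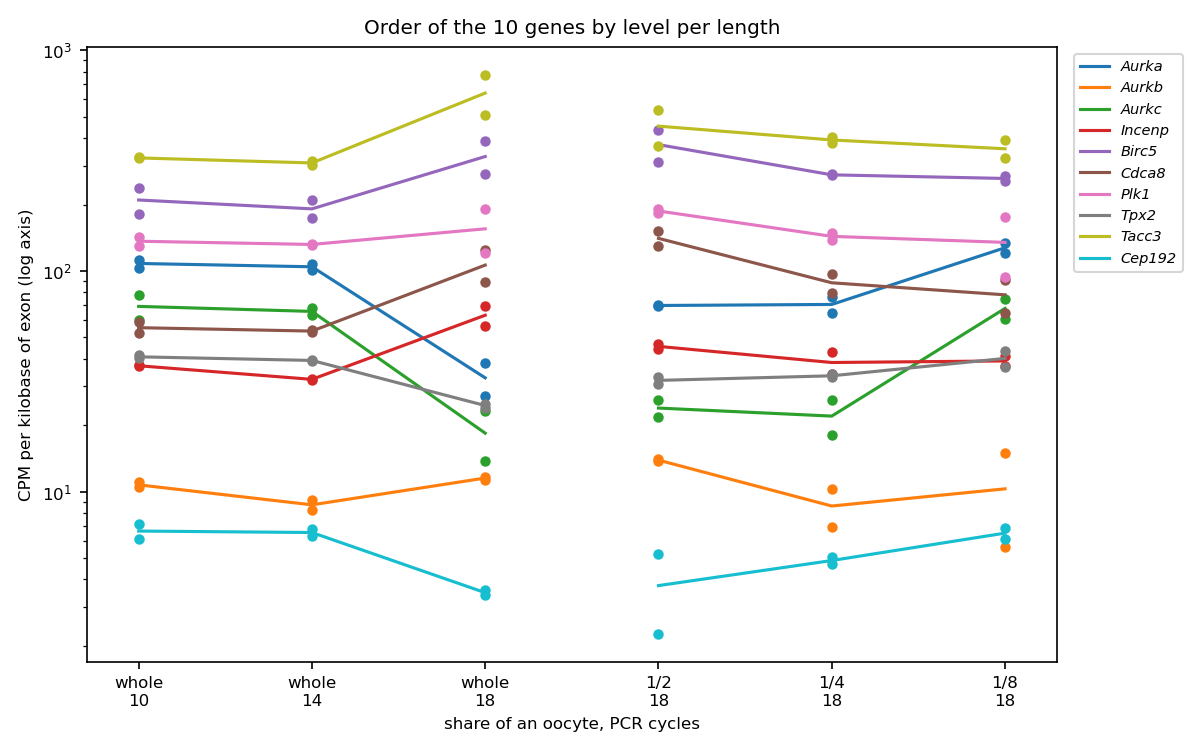
Level of the 10 genes in CPM per kilobase of exon on a log axis, by share of an oocyte and PCR cycles, with points for libraries and lines through the group means. Tacc3 is highest and Cep192 has the lowest mean in every group, and Aurka falls from 108 at 10 cycles to 32.8 at 18 cycles and stands at 127 in 1/8 of an oocyte, while ERCC scaling turns the first of these changes positive (0.70 on the log2 scale).

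Other genes followed Aurka and Aurkc closely over the 12 libraries, and Aurkb less closely. Among 7896 protein-coding genes with at least 10 counts in every library, the genes nearest to Aurka by Pearson's r of log2 CPM were Snx6 (0.992), Nup35 (0.992) and Psmc5 (0.989). Nearest to Aurkc were Tcl1b3 (0.983), Elobl (0.983) and 3110001I22Rik (0.983), and nearest to Aurkb were Lhpp (0.881), Gas6 (0.819) and Ube2cbp (0.814). These values describe likeness over 12 libraries and were not tested. Snx6, for example, stood at 95.5 and 112 CPM at 10 cycles, 24.2 and 38.7 at 18 cycles, then 126 and 140.4 in 1/8.

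Around the 10 genes, 3 lists of partners were counted. The regulators of Aurora kinases and of the centromere held 19 genes, among them the histone kinase Haspin, which marks the centromere for the passenger complex, and the subunits of protein phosphatase 6, which acts on AURKA. At 18 against 10 cycles, 2 of 19 were called lower and 5 higher, with a median log2 change of 0.76 against -0.29 over all genes, where 10.8% of all genes were called lower and 12.3% higher. The counts ranged from 0 to 2 lower and from 0 to 6 higher when a library was left out, and both were 0 without replicate 1 or replicate 2 of the 10-cycle group. The median was -0.0202 without replicate 1 of the 18-cycle group. Under ERCC scaling 0 of the 19 were called lower and 11 higher, where 47.6% of all genes were called higher.

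Haspin had the most counts per kilobase of this list, at 176 and 183 CPM at 10 cycles and 368 and 404 CPM at 18 cycles. The kinetochore kinase gene Bub1 was lower at 18 cycles (-1.26 ± 0.23, adjusted p = 0.00204) and Ppp6r3 too (-1.06 ± 0.23), and both signs turned under ERCC scaling (1.03 and 1.21). Bub1 was not called without replicate 1 (-1.38) or replicate 2 (-1.13) of the 10-cycle group, and Ppp6r3 was not called without either of these (-0.81 and -1.27) or without replicate 1 (-1.03) or replicate 2 (-1.04) of the 18-cycle group. Ppp2ca, a catalytic subunit of protein phosphatase 2A, rose by 1.96 ± 0.32, from 151 and 144 CPM to 337 and 602 CPM, and was not called without replicate 1 (1.96) or replicate 2 (1.96) of the 10-cycle group. Ppp6r1 rose by 2.17 ± 0.41 and was not called without either library at 10 cycles (2.63 and 1.82) or without replicate 2 at 18 cycles (1.38). In 1/4 of an oocyte, with the median ratio, Ppp6r1 (-2.51) and Ppp2ca (-2.22) were called lower. They were 2 of 18 tested, with 0 higher, where 0.426% of all genes were called lower and 0.0338% higher. Neither was called without replicate 2 of the whole oocytes (-1.70 and -1.66), or replicate 1 (-2.92 and -2.05) or replicate 2 (-2.17 and -2.41) of the 1/4 group. Against whole oocytes at 10 cycles they were at -0.35 and -0.27, neither of them called. In 1/8 of an oocyte, with the median ratio, 4 of 18 tested were called lower and 1 higher (2 to 4 and 0 to 1 when a library was left out), with a median of -0.92 that was -0.46 without replicate 1 of the whole oocytes, where 8.69% of all genes were called lower and 7.06% higher. Ppp6r1 was lowest (-3.10) and Ppp2ca followed (-1.88), the latter lost without replicate 2 of the whole oocytes (-1.33) or replicate 1 of the 1/8 group (-1.70). Against whole oocytes at 10 cycles these were -0.94 and 0.0686, and Bub1 was at -0.11, none of them called. Bub1 was the 1 that was higher (1.16), and was not called without replicate 1 (1.44) or replicate 2 (0.92) of the whole oocytes, replicate 2 of the 1/8 group (0.91), or replicate 1 (1.17) or replicate 2 (1.16) of the 1/4 group.

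The list of microtubule-organising centre and gamma-tubulin genes held 24 genes. At 18 against 10 cycles, 1 was called lower and 4 higher, with a median of -0.03, and against 14 cycles 0 were called lower and 5 higher by edgeR (0 to 2 and 0 to 4 when a library was left out), where 10.7% of all genes were called lower and 12.5% higher. Of all genes, 10.8% were called lower and 12.3% higher at 18 against 10 cycles, and the counts of this list ranged from 0 to 2 lower and from 0 to 5 higher when a library was left out. Other settings moved these counts. By DESeq2, 3 were called lower (13.8% of all genes) and 6 higher (15.6%) at 18 against 10 cycles. With no filter these were 3 (9.22%) and 5 (9.33%), and with at least 10 counts in every library 3 (22.5%) and 5 (22.0%). Against 14 cycles, DESeq2 called 3 lower (13.7%) and 5 higher (15.7%), and with no filter these were 3 (9.35%) and 5 (9.47%). At least 10 counts in every library gave 4 (22.2%) and 4 (21.6%), with a median of -0.12. Under ERCC scaling, 16 of the 24 were called higher and 0 lower, where 47.6% of all genes were called higher. Haus4, of the augmin complex that nucleates microtubules on microtubules, had the most counts per kilobase, with 207 and 187 CPM at 10 cycles and 504 and 279 CPM at 18 cycles. The gamma-tubulin gene Tubg2 rose by 1.81 ± 0.26, from 99.2 and 79.7 CPM to 346 and 182 CPM, and was not called without replicate 2 of the 10-cycle group (1.70). Haus8 rose by 1.45 ± 0.27 and was not called without replicate 1 (1.25) or replicate 2 (1.69) of that group. Tubgcp4 was lower (-1.17 ± 0.27), with the sign turned under ERCC scaling (1.00), and was not called without replicate 2 of the 10-cycle group (-0.85), replicate 1 (-1.17) or replicate 2 (-1.17) of the 14-cycle group, or replicate 1 (-0.94) or replicate 2 (-1.34) of the 18-cycle group, nor with 12 libraries in 1 fit (-1.15). In 1/8 of an oocyte, 3 of 24 were called lower and 0 higher with the median ratio, with 0 to 4 lower and 0 to 1 higher when a library was left out, where 8.69% of all genes were called lower and 7.06% higher. Among them Tubgcp6 stood at -2.37, lost without replicate 1 of the whole oocytes (-2.11) or replicate 1 (-2.68) or replicate 2 (-2.23) of the 1/8 group, and Haus8 at -1.61, lost without replicate 1 of the whole oocytes (-1.17) or replicate 2 of the 1/8 group (-1.38). Against whole oocytes at 10 cycles they were at -0.78 and -0.16. With ERCC scaling, the 10-cycle reference gave 1.13 for Tubg2 in 1/2, where the 18-cycle reference gave -2.96. For Haus8 in 1/4 the values were 0.0223 and -3.59. Of all genes, the 10-cycle reference called 2.13% lower and 6.55% higher in 1/2, and 7.75% and 0.870% in 1/4. The ERCC counts that follow are against whole oocytes at 18 cycles. The ERCC counts were 18, 23 and 24 of 24 lower in 1/2, 1/4 and 1/8, beside 52%, 69.7% and 87.5% of all genes, and ranged from 3 to 21, from 15 to 24 and from 22 to 24 when a library was left out.

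Spindle microtubule proteins and motors made up the last list of 26 genes. At 18 against 10 cycles, 13 were called lower and 3 higher, with a median of -0.81, and against 14 cycles 11 were called lower and 2 higher, but under ERCC scaling 0 were called lower and 15 higher in each of these comparisons, where 47.6% and 47.9% of all genes were called higher. By the median ratio, 10.8% of all genes were called lower and 12.3% higher at 18 against 10 cycles, and the counts of this list ranged from 6 to 14 lower and from 2 to 3 higher when a library was left out. At 18 against 14 cycles the shares of all genes were 10.7% and 12.5%, and the counts of this list ranged from 6 to 12 lower and stayed at 2 higher. Aspm, a spindle pole protein gene, stood at 1242 and 1416 CPM at 10 cycles, 1322 and 1278 at 14 cycles, 236 and 282 at 18 cycles, 319 and 399.9 in 1/2, 462 and 341 in 1/4, then 842 and 1052 in 1/8 of an oocyte. The 18-cycle whole oocytes were lowest and the 1/8 group lay between them and the whole oocytes at fewer cycles. Its log2 change was -2.09 ± 0.22 at 18 against 10 cycles (adjusted p = 1.23e-04), or 0.09 under ERCC scaling, and 1.66 ± 0.29 in 1/8 against the whole oocyte (adjusted p = 2.96e-04), or -0.44 against whole oocytes at 10 cycles. The motor gene Kif20b had like values of -2.06 ± 0.27 (0.11 under ERCC scaling) and 1.56 ± 0.34, the last lost without replicate 1 of the whole oocytes (1.34) or replicate 2 of the 1/8 group (1.29) and turned against whole oocytes at 10 cycles (-0.499). Clta, a clathrin light chain gene with the most counts per kilobase of this list, rose by 2.04 ± 0.20 at 18 against 10 cycles, from 78.9 and 87.9 CPM to 281 and 291 CPM. Mapre3, a low gene at 3.02 and 2.18 CPM at 10 cycles and 12.9 and 5.86 CPM at 18 cycles, rose by 2.13 ± 0.52, and was not called without replicate 1 (2.35) or replicate 2 (1.95) of the 10-cycle group, replicate 1 (2.12) or replicate 2 (2.12) of the 14-cycle group, or replicate 1 of the 18-cycle group (1.53), nor with TMM scaling (2.04) or 12 libraries in 1 fit (2.14). In 1/8 of an oocyte Clta was lower (-1.46 ± 0.28), which was lost without replicate 2 of the 1/8 group (-1.29), and so was Cltb (-1.22), lost without replicate 2 of the whole oocytes (-1.06) or replicate 2 of the 1/8 group (-1.004). Against whole oocytes at 10 cycles both signs turned (0.57 and 0.37). With whole oocytes at 10 cycles as reference and the median ratio, 0 genes of the 3 lists were called in 1/8 by edgeR, as were 0 of all genes, with 2278 of all genes at an unadjusted p under 0.05. Across this list in 1/8, 2 genes were called lower and 7 higher with the median ratio (0 to 2 and 2 to 7 when a library was left out), with a median of 0.48, where 8.69% of all genes were called lower and 7.06% higher. At 14 against 10 cycles 0 of the genes in the 3 lists were called by edgeR, where 513 of all genes had an unadjusted p under 0.05 and DESeq2 called 2 of all genes.

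Sequence near the ends of the transcripts is shown because stored oocyte mRNAs are lengthened and translated through elements there. The letters of the cytoplasmic polyadenylation element, TTTTAT or TTTTAAT on the transcript strand, were searched in the last 100 bases of the longest complete protein-coding transcript of each gene in GENCODE M21 (GRCm38). They were found in all 3 Aurora kinases and in 0 of the other 7 members, and in 16.7% of 21781 genes, and the difference between members was not tested. For Cdca8 and Incenp a longer transcript is annotated than the 1 searched (3358 against 1626 bases and 3449 against 3236 bases). The lines give 28 bases around each match, 5′ to 3′ on the transcript strand, with the element in capitals.
Aurka, chr2:172356238-172356265, minus strand, first base of the element 59 bases from the end: taaaggctattTTTTATgttggagttct
Aurkb, chr11:69051617-69051644, plus strand, 37 bases from the end: gaagaacaacaTTTTATaataaagtctt
Aurkc, chr7:7003037-7003064, plus strand, 44 bases from the end: cttgttttctcTTTTATgaagtgatgtt
The polyadenylation signal letters AATAAA or ATTAAA were found in the same window in 9 of the 10 members, all but Aurka, and in 75.0% of the genes. A match describes letters and does not show that an element is used.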

How the data were processed

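The authors trimmed reads with Cutadapt 2.5, aligned them to GRCm38 with the ERCC sequences by STAR 2.7.2a, and deposited raw counts per gene and ERCC molecule from HTSeq 0.9.1, without normalization or removal of duplicates. The strand setting of the counting was not settled from the values. CPM was computed here over gene counts, and level per kilobase over the union of exons in GENCODE M21. A gene with 5 or more counts in 2 or more of the libraries fitted together was tested with the edgeR 4.0.16 quasi-likelihood test in R 4.3.3, on the 6 whole-oocyte libraries for cycles and the 8 libraries at 18 cycles for fractions, with group as the only term. Size factors were median ratios over genes, or over ERCC molecules for the fractions as well. P-values were adjusted over all genes tested by Benjamini-Hochberg, with a threshold of 0.01. Standard errors were the log2 change divided by the square root of F. DESeq2 1.42.0, TMM, other filters, other references and leaving out each library were the alternatives, and the steps were tested on simulated data. The members and the partner lists were chosen with earlier results of these data known. From each partner list the text names the gene with the most counts per kilobase and, for 18 against 10 cycles and for 1/8 with the median ratio, up to 2 largest rises and 2 largest falls among genes past the threshold with a mean of 20 counts or more and no overlap between groups. The likeness to Aurka, Aurkb and Aurkc is Pearson's r of log2(CPM + 1). Python 3.11.15 with SciPy 1.17.1 gave the Wilson intervals, sequence matches and 50-base words.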

Additional observations from a re-analysis of the deposited data

How the results depend on the processing

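For the 10 genes in 9 comparisons, leaving out a library kept direction and side of the threshold in 596 cases, ended a call in 45, made one in 3 and turned the sign in 16, none of which was called with or without the library. A group left with 1 library was assumed to vary like the others. The lowest and highest member counts without a library were 0 and 2 lower and 0 and 4 higher at 18 against 10 cycles, 0 and 2 lower and 0 and 5 higher at 18 against 14 cycles, 0 and 1 lower and 1 and 2 higher in 1/8 with the median ratio, 2 and 9 lower in 1/2 with ERCC, and 9 and 10 lower in 1/4 with ERCC. Leaving out a library changed no member's call at 14 against 10 cycles or in 1/8 with ERCC. It also changed none in 1/2 and 1/4 with the median ratio. With all libraries, 0% of all genes were called lower and 0% higher at 14 against 10 cycles. With the median ratio the shares were 0.0406% and 0.0811% in 1/2, and 0.426% and 0.0338% in 1/4. With ERCC, 87.5% of all genes were called lower in 1/8. Over all genes, calls without a library ranged from 688 to 1827 lower and 928 to 2180 higher at 18 against 10 cycles, from 858 to 1802 lower and 957 to 2156 higher at 18 against 14 cycles, from 689 to 1189 lower and 287 to 957 higher in 1/8 with the median ratio, and from 1930 to 8908 lower in 1/2 and 6703 to 10592 lower in 1/4 with ERCC.

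The signs that turned without a library had these lowest and highest log2 changes, and the cause was not tested. At 14 against 10 cycles they were -0.19 and 0.0194 for Aurka, -0.33 and 0.13 for Aurkc, -0.40 and 0.0818 for Birc5, -0.21 and 0.0395 for Cdca8, -0.19 and 0.0271 for Plk1, -0.12 and 0.0167 for Cep192. With the median ratio they were -0.0618 and 0.83 for Aurkc, -0.14 and 0.41 for Birc5, -0.62 and 0.51 for Cep192 in 1/2, -0.29 and 0.60 for Aurkc, -0.49 and 0.0385 for Plk1 in 1/4, and -1.23 and 0.20 for Aurkb, -0.90 and 0.00219 for Plk1 in 1/8.

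Other settings kept 576 cases, ended a call in 24, made one in 22 and turned the sign in 68, of which 30 were called in at least 1 of the fits compared and 38 in none, and the cause was not tested. With ERCC molecules for the cycles, 0 members were called lower and 8 higher at 18 against 10 and 0 lower and 8 higher at 18 against 14 cycles, where 47.6% and 47.9% of all genes were called higher. The turned changes were 0.70 and 0.82 for Aurka, 0.47 and 0.63 for Aurkc, 1.74 and 1.86 for Tpx2, and 1.57 and 1.63 for Cep192. With at least 10 counts in every library, 4 were called lower at 18 against 10 cycles (22.5% of all genes), and 0 lower in 1/8 with the median ratio (12.6%). For 1/8, 0 were lower with TMM (7.59%), 2 with DESeq2 (10.7%) and 2 with 12 libraries in 1 fit (9.19%).

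The references with fewer cycles changed most, and 14 cycles as reference was chosen after seeing the data. With 10 and with 14 cycles, the members called with the median ratio were 1 and 1 lower (6.88% and 7.01% of all genes) and 2 and 2 higher (9.30% and 9.45%) in 1/2, 1 and 1 lower (4.17% and 3.59%) in 1/4, and 0 and 0 lower and 0 and 0 higher in 1/8. With ERCC they were 0 and 0 lower (2.13% and 2.58%) and 1 and 1 higher (6.55% and 6.44%) in 1/2, and 1 and 1 lower (7.75% and 7.03%) in 1/4. The turned changes with the median ratio were as follows, and the cause was not tested. In 1/2 they were -0.40 and -0.31 for Aurka, -1.29 and -1.18 for Aurkc, 0.53 and 0.77 for Incenp, -0.12 and -0.0267 for Tpx2, 0.71 and 0.82 for Tacc3, -0.60 and -0.54 for Cep192. In 1/4 they were -0.50 and -0.42 for Aurka, 0.14 with 14 cycles for Aurkb, -1.54 and -1.43 for Aurkc, 0.17 and 0.41 for Incenp, 0.49 and 0.67 for Birc5, 0.79 and 0.88 for Cdca8, 0.19 and 0.27 for Plk1, -0.17 and -0.0775 for Tpx2, 0.39 and 0.50 for Tacc3, -0.32 and -0.27 for Cep192. In 1/8 they were 0.0687 and 0.40 for Aurkb, 0.13 and 0.37 for Incenp, 0.37 and 0.55 for Birc5, 0.55 and 0.64 for Cdca8, 0.0423 and 0.13 for Plk1, 0.19 and 0.30 for Tacc3. With ERCC in 1/2 they were 0.79 and 1.10 for Aurkb, 0.72 and 0.92 for Incenp, 1.27 and 1.43 for Birc5, 1.77 and 1.84 for Cdca8, 0.87 and 0.93 for Plk1, 0.0692 and 0.13 for Tpx2, 0.85 and 0.92 for Tacc3, and in 1/4 they were 0.13 and 0.19 for Cdca8. Over all genes with the median ratio, edgeR called 0 lower and 0 higher in 1/8 against either reference, with 2278 and 2512 genes at an unadjusted p under 0.05.

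Without the 100 most counted genes, the mean summed CPM of the members was 4006 at 10 cycles, 3818 at 14 cycles, 5978 at 18 cycles, 5796 in 1/2, 4638 in 1/4 and 4569 in 1/8. With the longest transcript as length, 4 genes kept their place at 10 cycles, 8 in whole oocytes at 18 cycles and 6 in 1/8.

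The labels do not say whether replicate numbers pair libraries across groups, and replicate differences with the same number correlated at -0.14 to 0.14 across genes, which are not independent replicates. With the replicate number as a block, Birc5 at 18 against 10 cycles (0.92) and Aurkc in 1/2 with ERCC (-1.56) were called, Cep192 in 1/2 turned sign with the median ratio (-0.00626), Mapre3 at 18 against 10 cycles was not called (2.08), and all-gene calls in 1/2 were 36 lower and 37 higher.

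The limits are 2 libraries a group, 18-cycle whole oocytes that serve as reference for all fractions, Aurkb at 28 to 504 counts, pseudogene copies of Aurkc, and exons of Cdca8, Plk1 and Tacc3 that overlap genes on the other strand. The fraction groups also share 2 oocytes but were fitted as separate groups, and no replication over animals is stated.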
